A study of Mus musculus with 4 samples.

Results

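Nephronectin, the tenascins, osteonectin and its relative hevin, the thrombospondins, periostin and fibronectin are secreted proteins through which osteoblasts shape their surroundings. The 10 genes that encode them here were Npnt, Tnn, Tnc, Tnxb, Sparc, Sparcl1, Thbs1, Thbs2, Postn and Fn1. They were chosen by name with earlier results of the same arrays known, and their probes were found through RefSeq accessions. They make up 10 of the 22911 genes that could be named on the array and carry 18 of its probes. Since the log2 ratios given here were among the values that led to the choice, they are a description and support no test.

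The cells were MC3T3-E1, a mouse osteoblast line from calvaria, in 4 groups with 1 one-colour Agilent array each. Miglustat cells received the iminosugar miglustat at 50 µM, D-PDMP cells received 10 µM of that compound and D-PPMP cells received 1.0 µM of theirs, each for 4 days, while the Control group is labelled with no inhibitor. After replating, every group was cultured for another 24 h before RNA was taken. All 3 compounds block glucosylceramide synthase, which adds glucose to ceramide. D-PDMP and D-PPMP are ceramide analogues with the same phenyl and morpholino core and differ in their fatty acyl chain, decanoyl in D-PDMP and palmitoyl in D-PPMP. Their doses differed, so values of the inhibitors are set side by side and not tested against each other, and all 3 sets of ratios share the Control array.

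Matricellular proteins are matrix-bound regulators: they bind cells, other matrix proteins and growth factors and tune adhesion and signalling more than they bear load. Many act through integrins, which recognise short peptide motifs such as the one in fibronectin and nephronectin. In bone, osteoblasts and the cells of the periosteum secrete most of them, and osteonectin is among the abundant non-collagen proteins of bone matrix.

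With 1 array per group the data give neither a replicate error nor a test, and precision is limited by how few arrays there are. A level is the log2 of the processed signal, the scanner software's background-corrected brightness of a spot, minus the 75th percentile of the array, which was a signal between 183 and 191. A ratio is the inhibitor's level minus the Control level. The scanner software's own error of such a ratio had a median of 0.204 over all genes and covers measuring error within the arrays only. It builds on the software's error of each signal, which was close to 0.1 of the signal for nearly all member spots. These errors are therefore nearly the same for most members and are not a spread measured for each gene. A gene was called at 2-fold, and also counted at 1.5-fold, where it was well above background on both arrays. All 18 probes were well above background on all 4 arrays and no spot was saturated. The share of all probes well above background was 60.2% in Miglustat cells, 60.8% in D-PDMP cells and 62.4% in D-PPMP cells, against 57.4% in Control. The 4 arrays lay on 1 slide in a position each, so that the slide position cannot be told apart from the treatment.

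As a check of the label, 6 of the 10 osteoblast markers (Runx2, Sp7, Col1a1, Col1a2, Spp1 and Dlx5) were well above background on every array. The osteoblast markers Alpl, Ibsp and Dmp1 stayed at background level on all of them. Bglap was well above background in D-PDMP and D-PPMP cells and not in Miglustat or Control cells. Its signal was lowest in Control, at 3.96, and read 5.49 in D-PDMP cells and 7.13 in D-PPMP cells. The lowest signals counted as well above background were between 4.61 and 4.83. The Bglap signals lay close to that limit, so nothing is read from this difference.

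Nephronectin and tenascin-N stood farthest from Control. Both were lower with the ceramide analogues and higher with Miglustat. Of the 10 members, 2 were at least 2-fold lower with D-PDMP, where 0.17% of 14154 genes were so, and 2 were at least 2-fold lower with D-PPMP, where 0.204% of 14200 genes were so. They were Npnt and Tnn in both cases. With Miglustat 1 member, Sparcl1, was at least 2-fold higher, against 0.212% of 14171 genes, and none was 2-fold lower, against 0.176%. With normexp background correction of the median spot signal, 1 of these 5 calls stood, Tnn with D-PPMP at a log2 ratio of -1.32. There Tnn with D-PDMP was at -0.99, Npnt was at -0.68 in D-PDMP cells and -0.71 in D-PPMP cells, and Sparcl1 with Miglustat was at 0.93. This normexp run added an offset of 50 to every signal, where the Npnt processed signal was 48.8 in D-PDMP cells and 110.3 in Control. The part of the offset in these ratios was not tested. No member was 2-fold higher with D-PDMP, where 0.155% of genes were, or with D-PPMP, where 0.303% were. Because these contrasts were known when the members were picked, nothing is read from the counts.

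**Figure D1:**
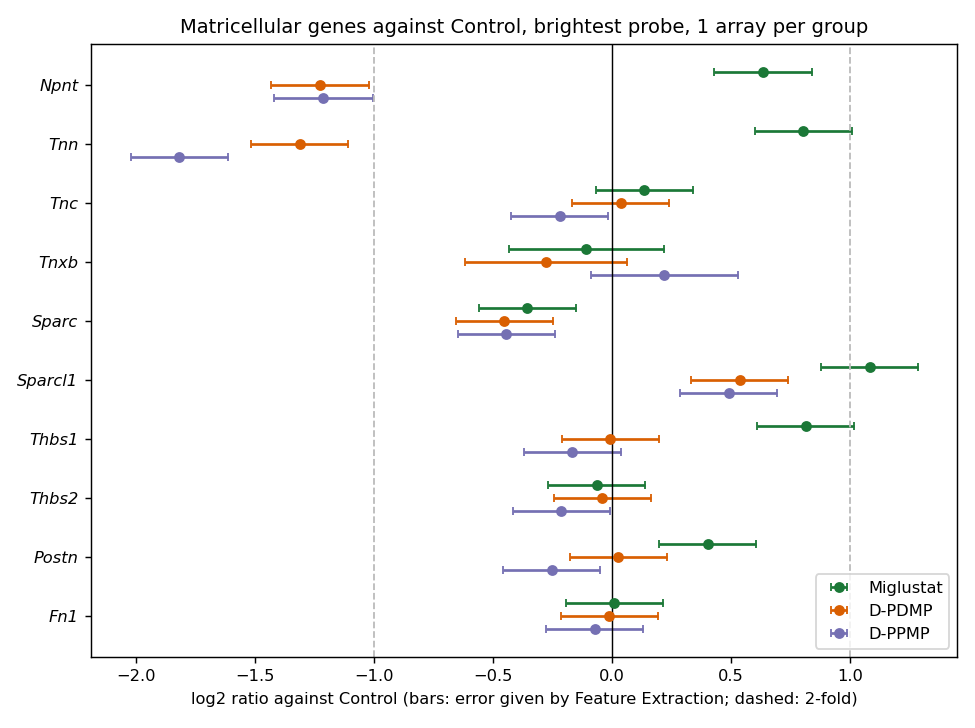
Log2 ratio against Control (horizontal axis) of each of the 10 genes (rows) with Miglustat, D-PDMP and D-PPMP, taken from the brightest probe of the gene; bars are the error that the scanner software gives and dashed lines mark 2-fold. Npnt and Tnn lie left of the lower dashed line with both ceramide analogues and right of 0 with Miglustat, Sparcl1 lies right of the upper line with Miglustat, and Fn1 lies within 0.08 of 0 with each inhibitor.

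Npnt encodes nephronectin, a ligand of the integrin that contains the alpha8 chain, and is known for its part in kidney development and in osteoblast differentiation in mice. Its probe had a processed signal of 179 in Miglustat cells, 48.8 in D-PDMP cells and 49.1 in D-PPMP cells, against 110.3 in Control. The Miglustat array was the brightest of the 4, and the arrays of both ceramide analogues were the dimmest and close to each other. The log2 ratios were 0.63 ± 0.20 in Miglustat cells, -1.23 ± 0.21 in D-PDMP cells and -1.21 ± 0.21 in D-PPMP cells, where ± is the error from the scanner software. As folds these were 1.55-fold higher, 2.34-fold lower and 2.32-fold lower. Among all genes measured, Npnt was the 12th lowest with D-PDMP and the 16th lowest with D-PPMP, and the 169th highest with Miglustat. It has 1 probe with 1 spot, so no other probe bears on these values.

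Tnn encodes tenascin-N, also called tenascin-W, which is found in the periosteum and at sites of bone formation. Its brighter probe read 515 in Miglustat cells, 118 in D-PDMP cells and 82.6 in D-PPMP cells, against 282 in Control. Its other probe read 140.3, 37.3 and 22.9 with the inhibitors in that order, against 69.5 in Control. Both probes put the 4 arrays in the same order, with Miglustat highest and D-PPMP lowest. The ratios of the brighter probe were 0.80 ± 0.20 in Miglustat cells, -1.31 ± 0.20 in D-PDMP cells and -1.82 ± 0.20 in D-PPMP cells, and those of the other probe were 0.95, -0.95 and -1.65. With D-PPMP, Tnn was 3.53-fold lower on the brighter probe and the 2nd lowest of all genes measured, and with D-PDMP it was 2.49-fold lower and the 9th lowest. With D-PDMP the dimmer probe, at 1.93-fold, did not reach 2-fold.

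**Figure D2:**
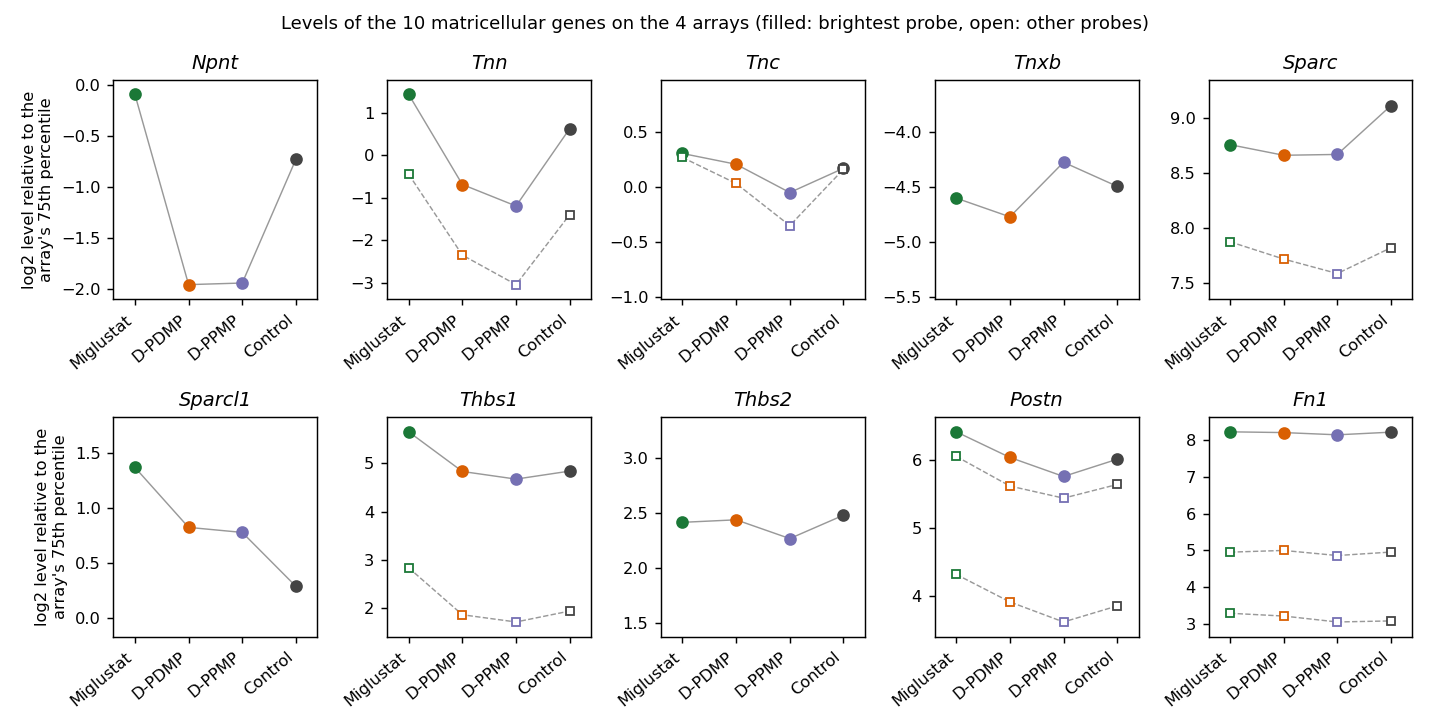
Log2 level relative to the array's 75th percentile (vertical axis, with its own range in each panel and at least 2 log2 units high) of the 10 genes on the Miglustat, D-PDMP, D-PPMP and Control arrays; filled circles are the brightest probe of a gene and open squares its other probes. Both Tnn probes take the same order over the arrays, as do both Thbs1 probes, whereas the brightest Sparc probe is highest in Control and its other probe is highest with Miglustat.

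The start regions of Npnt and Tnn are shown because these 2 genes were called together. RefSeq windows on GRCm38.p6, from 250 bases before to 50 after an annotated start, were held for 7 of the 10 members, 10 windows in all. The third window belongs to Tnc, a tenascin that was not called with any inhibitor. Each is printed 5′ to 3′ on the gene's strand, with matches to 4 searched motifs in capitals:
Npnt upstream start, chr3:132950242-132950541, minus strand: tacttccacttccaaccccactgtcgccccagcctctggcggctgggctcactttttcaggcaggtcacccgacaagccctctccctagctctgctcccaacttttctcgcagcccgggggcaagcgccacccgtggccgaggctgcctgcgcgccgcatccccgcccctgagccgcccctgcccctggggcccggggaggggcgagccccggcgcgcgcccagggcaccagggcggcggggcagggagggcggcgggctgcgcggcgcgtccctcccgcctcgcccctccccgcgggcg
Tnn start, chr1:160153526-160153825, minus strand: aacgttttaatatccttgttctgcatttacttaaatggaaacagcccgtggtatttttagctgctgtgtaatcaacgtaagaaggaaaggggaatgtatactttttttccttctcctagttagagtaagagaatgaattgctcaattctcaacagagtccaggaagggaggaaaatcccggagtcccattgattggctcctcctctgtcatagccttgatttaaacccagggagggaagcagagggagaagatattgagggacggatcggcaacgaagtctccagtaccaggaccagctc
Tnc upstream start, chr4:64046966-64047265, minus strand: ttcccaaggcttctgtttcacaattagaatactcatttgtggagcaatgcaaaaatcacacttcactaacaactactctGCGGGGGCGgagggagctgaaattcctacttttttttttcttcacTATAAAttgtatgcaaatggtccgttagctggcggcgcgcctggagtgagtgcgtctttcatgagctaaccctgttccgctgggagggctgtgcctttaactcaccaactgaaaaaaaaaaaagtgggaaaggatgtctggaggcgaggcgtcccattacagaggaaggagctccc

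The Npnt window had 76.7% G and C and the Tnn window 44.3%, and the median over 32851 windows of all genes was 52.7%. Motifs searched on both strands were TGANTCA of AP-1, GCGNGGGCG of Egr factors, TGTGGT of Runx factors and TATAAA of the TATA box, none of which overlapped another in these windows. They occur in 7.81%, 5.55%, 16.8% and 13.6% of all windows. Neither the window of Tnn nor that of Npnt, nor that of the second Npnt start, held a match, which says only that these letters are not in those windows. The Tnc window held GCGGGGGCG with its first base 171 bases before the start and TATAAA at 126 bases before it.

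Over the other tenascins the differences were small. Tnc encodes tenascin-C, a large oligomeric glycoprotein of developing and wounded tissue that weakens cell attachment to fibronectin. Its brighter probe read 236 in Miglustat cells, 218 in D-PDMP cells and 182 in D-PPMP cells, against 205 in Control, and the ratios were 0.14, 0.04 and -0.22. The other probe gave 0.11, -0.13 and -0.51. Both probes were lowest with D-PPMP, and for D-PDMP they differed in sign. Tnxb encodes tenascin-X, which organises collagen fibrils in skin and tendon. Its signal was 7.86 in Miglustat cells, 6.93 in D-PDMP cells and 9.73 in D-PPMP cells, against 8.09 in Control, close to the lowest signals counted as well above background, which were between 4.61 and 4.83. Each of its 3 ratios, -0.11, -0.28 and 0.22, was smaller than its error, which lay between 0.31 and 0.34.

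Sparcl1 was higher than Control with each inhibitor. It encodes hevin, a collagen-binding relative of osteonectin. Its single probe is printed in 10 spots, so each array measured the same RNA 10 times. The spot signals had a lowest, median and highest value of 442, 489 and 562 in Miglustat cells, of 289.8, 339 and 375 in D-PDMP cells and of 287, 334 and 367 in D-PPMP cells, against 192, 225 and 258 in Control. No Miglustat spot overlapped a spot of any other array, and no spot of either ceramide analogue overlapped a Control spot, whereas the D-PDMP and D-PPMP spots overlapped each other. How often the spots of other probes part in this way was not counted, so nothing is read from it. Taken spot position by spot position, the log2 ratio against Control was 1.08 ± 0.07 in Miglustat cells, 0.54 ± 0.08 in D-PDMP cells and 0.49 ± 0.08 in D-PPMP cells (SD over 10 spots of 1 RNA sample, a technical spread). The Miglustat ratio was 2.12-fold and the 20th highest of the genes measured. The D-PDMP ratio, at 1.45-fold, was the 233rd highest and the D-PPMP ratio, at 1.41-fold, the 504th highest. These spots say nothing of the spread between cultures.

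**Figure D3:**
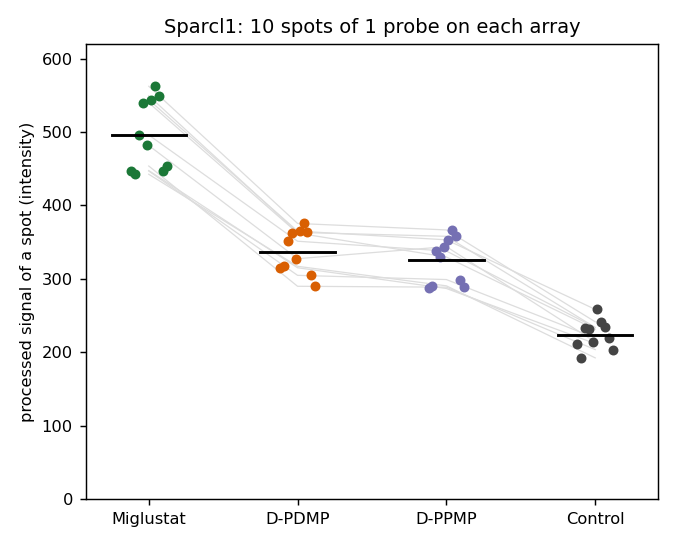
Processed signal (intensity, vertical axis from 0) of the 10 spots of the Sparcl1 probe on the Miglustat, D-PDMP, D-PPMP and Control arrays; black lines are the means and grey lines join the same spot position. The Miglustat spots lie between 442 and 562, above all others, and the Control spots lie between 192 and 258, below all others.

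Sparc itself, which encodes osteonectin, a calcium- and collagen-binding protein of bone matrix, gave 2 answers. Its brighter probe read 82822 in Miglustat cells, 76848 in D-PDMP cells and 76931 in D-PPMP cells, against 101376 in Control, with ratios of -0.36, -0.45 and -0.44, each ± 0.20. The other probe read 44872, 39918 and 36277 with the inhibitors in that order, against 41331 in Control, with ratios of 0.05, -0.10 and -0.24. The probes differed in sign with Miglustat, and with both ceramide analogues the brighter probe stood farther from Control than the other. Averaged over the 2 probes, the Miglustat ratio was -0.15 in place of -0.36.

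Thbs1 encodes thrombospondin-1, an adhesive trimer that restrains vessel growth and can activate latent TGF-beta. Its brighter probe read 9621 in Miglustat cells, 5393 in D-PDMP cells and 4811 in D-PPMP cells, against 5227 in Control. The Miglustat array stood alone above the other 3, at a ratio of 0.82 ± 0.20, or 1.76-fold, and the 65th highest gene. The ratios with D-PDMP and D-PPMP were -0.01 and -0.17. The second Thbs1 probe gave 0.90 in Miglustat cells, -0.08 in D-PDMP cells and -0.23 in D-PPMP cells. Thbs2 encodes the related thrombospondin-2, which takes part in collagen fibril assembly. It read 1016 in Miglustat cells, 1024 in D-PDMP cells and 906 in D-PPMP cells, against 1017 in Control, and had ratios of -0.06, -0.04 and -0.21. Of the 2 thrombospondins, Thbs1 passed 1.5-fold with Miglustat and Thbs2 did not.

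Postn encodes periostin, a matrix protein of periosteum and ligament that binds collagen and integrins. Its brightest probe read 16287 in Miglustat cells, 12449.6 in D-PDMP cells and 10212 in D-PPMP cells, against 11781 in Control. The ratios were 0.40 ± 0.20, 0.03 ± 0.20 and -0.25 ± 0.20. Its 3 probes, designed on 2 transcript accessions, lay between 0.40 and 0.46 with Miglustat, between -0.02 and 0.06 with D-PDMP and between -0.25 and -0.20 with D-PPMP. Each of the 3 probes was highest in Miglustat cells and lowest in D-PPMP cells.

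Fn1 encodes fibronectin, the fibril-forming matrix protein to which integrins and many matricellular proteins bind. It varied least of the 10 genes, over 0.08 log2 units between the highest and the lowest array. Its brightest probe read 57015 in Miglustat cells, 55765 in D-PDMP cells and 53235 in D-PPMP cells, against 54174 in Control, and the ratios were 0.01, -0.01 and -0.07. A probe designed on another Fn1 transcript accession had the largest difference, 0.21 with Miglustat.

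At 1.5-fold the Miglustat array had 4 members higher (Npnt, Tnn, Sparcl1 and Thbs1), where 1.57% of all genes were, and none lower, where 1.11% were. The D-PDMP and D-PPMP arrays each had 2 lower (Npnt and Tnn), where 1.2% and 1.18% of all genes were, and none higher, where 1.34% and 2.27% were. The members' median ratio was 0.27 in Miglustat cells, -0.03 in D-PDMP cells and -0.22 in D-PPMP cells, and the medians of all genes measured were -0.02, 0.00 and -0.01. Nearest to the 2-fold line on its inner side were Sparcl1 with Miglustat at 1.08 and Npnt with D-PDMP at -1.23 and with D-PPMP at -1.21. The nearest members outside it were Thbs1 with Miglustat at 0.82, Sparc with both ceramide analogues at -0.45 and -0.44, Sparcl1 with them at 0.54 and 0.49, and Sparc with Miglustat at -0.36. Over the 4 arrays the range of the brightest probe was 2.62 log2 units for Tnn, 1.86 for Npnt, 1.08 for Sparcl1, 0.98 for Thbs1 and 0.66 for Postn, and at most 0.50 for each of the other 5.

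**Figure D4:**
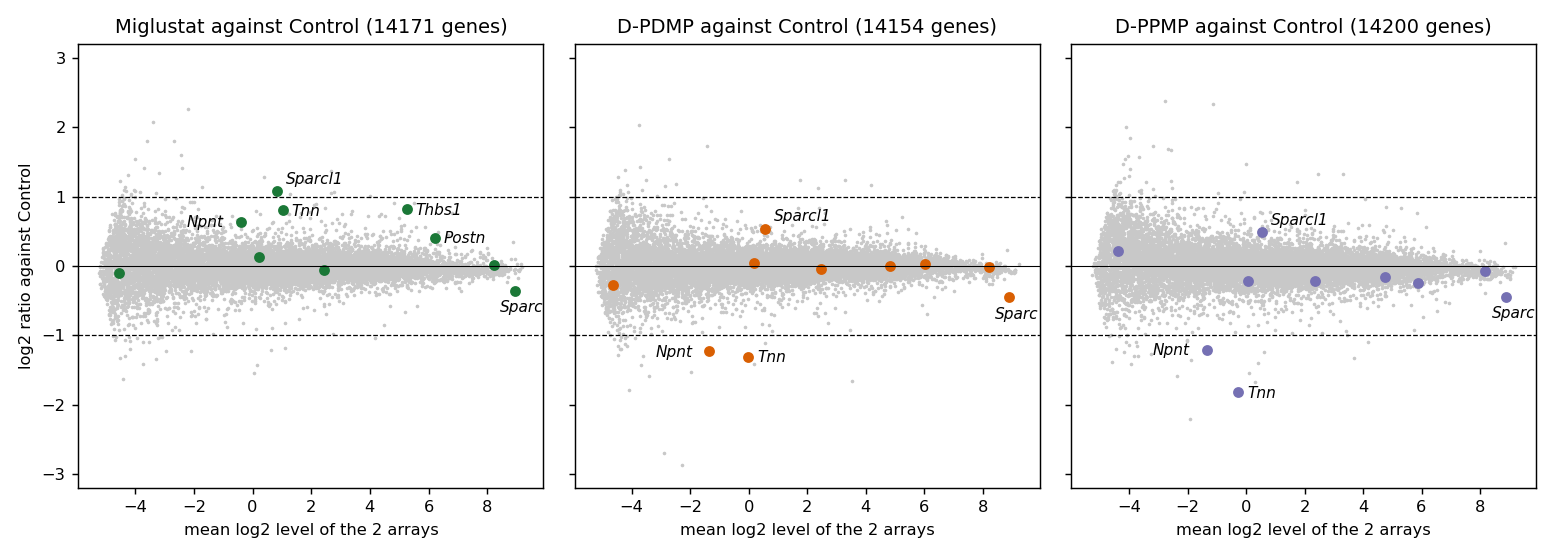
Log2 ratio against Control (vertical axis) over the mean log2 level of the 2 arrays (horizontal axis) for every gene well above background on both, in grey, with the 10 members as coloured points and 2-fold as dashed lines. Npnt and Tnn lie near the lower edge of the cloud with D-PDMP and D-PPMP and above its middle with Miglustat; the cloud is wider at low levels.

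The genes whose 3 ratios lay closest to those of the called members were sought among 12550 other genes that were well above background on all arrays and had a symbol of letters and digits opening with a capital and a lower-case letter. Clone names, predicted genes, olfactory receptors named Olfr and symbols such as those with a hyphen were left out by this rule. Nearest to Npnt by Euclidean distance were Igfbp2, an insulin-like growth factor carrier, at a distance of 0.34 with ratios of 0.37, -1.11 and -1.40 (Miglustat, D-PDMP and D-PPMP), and Ccn3, another matricellular protein, at 0.38 with ratios of 0.72, -0.93 and -0.99. Plxnc1, Rtl3 and Zfp185 followed at 0.52, 0.59 and 0.60. Nearest to Tnn were Npnt at 0.64 and Igfbp2 at 0.64, then Ccn3 at 0.92, Rtl3 at 1.06 and Samd5 at 1.09. Nearest to Sparcl1 were Grm5, Tlr1, Samd3, Afap1l1 and Slc23a3, at distances from 0.25 to 0.31. Their Control levels lay between -4.92 and -4.23, near background, where ratios scatter most. Plxnc1, Zfp185 and Samd5 were also low with the ceramide analogues, at levels between -5.11 and -3.88. Each distance rests on 4 arrays.

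Among receptors of the members, the alpha8 chain of an integrin that binds nephronectin had the largest ratio. Itga8 read 56.1 in Miglustat cells, 16.05 in D-PDMP cells and 17.0 in D-PPMP cells, against 15.3 in Control, on its 1 probe. Only the Miglustat array stood apart, at 3.50-fold above Control (log2 ratio 1.81), while the ratios with D-PDMP and D-PPMP were 0.01 and 0.10. The D-PDMP, D-PPMP and Control signals were low, where the lowest signals counted as well above background were between 4.61 and 4.83. With normexp background correction, which added 50 to every signal, the Miglustat ratio of Itga8 was 0.69, under 2-fold. Itga9, a chain of a receptor for tenascin-C, read 9.78 in Miglustat cells, 7.11 in D-PDMP cells and 7.85 in D-PPMP cells, against 15.2 in Control, and had ratios of -0.70, -1.15 and -1.001. It was lowest with the ceramide analogues, at signals not far above background. With normexp its D-PDMP and D-PPMP ratios were -0.20 and -0.21, and with the percentile taken over bright probes the D-PPMP ratio was -0.997. Its second probe, well above background on 1 array, gave -0.08, -0.79 and -0.73.

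Of 24 receptors and binding partners on the list, 18 were measured in each comparison. With Miglustat 1 was at least 2-fold higher (Itga8), where 0.212% of all genes were, and with D-PDMP and D-PPMP 1 each was at least 2-fold lower (Itga9), where 0.17% and 0.204% of all genes were. None of these calls stood with normexp. Its offset of 50 was larger than every Itga9 signal, 7.11 to 15.2, and than the Itga8 signal in Control, 15.3. Such an offset shrinks the ratios of dim genes, so normexp could hardly uphold a 2-fold call here and nothing is read from it. The median was -0.01 in Miglustat cells, -0.07 in D-PDMP cells and -0.01 in D-PPMP cells. Itgav and Itgb1, common partners in integrins that bind fibronectin and periostin, had ratios of 0.26, 0.14 and 0.12 for Itgav and of 0.14, 0.06 and 0.12 for Itgb1. Itga5, the partner of Itgb1 in the classical fibronectin receptor, was at -0.34, -0.07 and 0.04. Itgb3, another integrin chain on the list, was at -0.45, -0.18 and -0.16.

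Related matrix proteins were examined as a list of 25, of which 18, 17 and 18 were measured with Miglustat, D-PDMP and D-PPMP. None was 2-fold from Control on its brightest probe. With D-PDMP 14 of 17 and with D-PPMP 14 of 18 were below Control, with medians of -0.20 and -0.29, where 50.4% and 51.5% of all genes were below Control. In Miglustat cells 10 of 18 stood higher than Control and the median was 0.13, or -0.01 with normexp, where 55.5% of all genes lay below. Fbn2, the microfibril protein fibrillin-2, had the largest ratio of the list, at 0.24 in Miglustat cells, -0.68 in D-PDMP cells and -0.85 in D-PPMP cells. Its second probe gave 0.20, -0.71 and -1.005, just past 2-fold with D-PPMP. Mfap5, a microfibril glycoprotein, was at 0.65, -0.26 and -0.54. Spp1, the bone phosphoprotein osteopontin, was at -0.66, 0.19 and 0.38, with signals of 5619, 10086 and 11464 in the inhibitor groups, against 8514 in Control. Egfl6, which encodes a relative of nephronectin, stayed at background level on all 4 arrays.

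**Figure D5:**
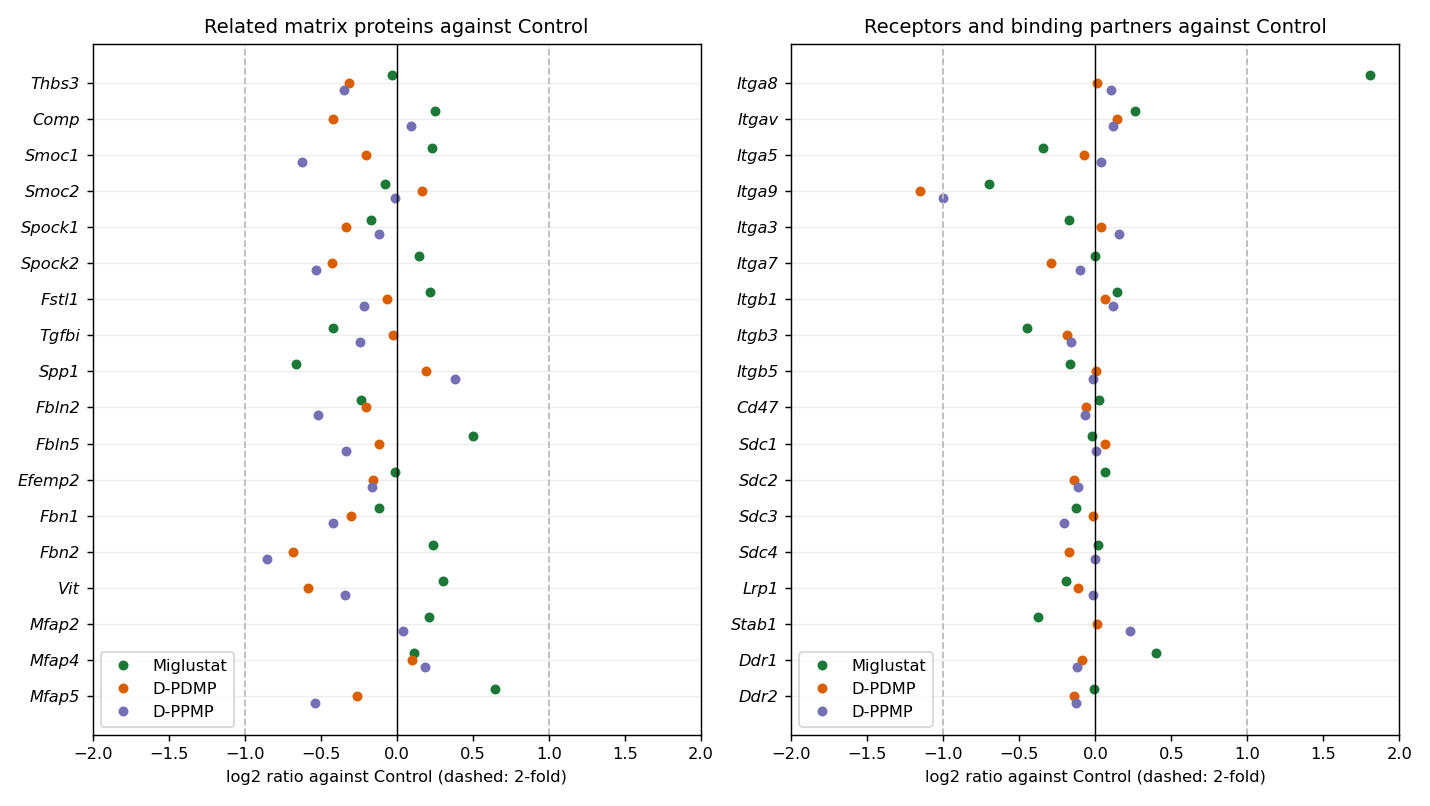
Log2 ratio against Control (horizontal axis) with Miglustat, D-PDMP and D-PPMP of the related matrix proteins (left) and of the receptors and binding partners (right) that were well above background on Control and on that inhibitor's array; dashed lines mark 2-fold. Itga8 with Miglustat, at 1.81, and Itga9 in D-PDMP and D-PPMP cells, at -1.15 and -1.001, reach 2-fold, and no related matrix protein does on its brightest probe, the one shown.

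Markers of other cell types were read beside these values, since a bulk sample cannot tell fewer cells of a type from less RNA per cell. The summed signal of the 5 chondrocyte markers was 16875 in Miglustat cells, 10720.2 in D-PDMP cells and 10142 in D-PPMP cells, against 12415 in Control, on the same side of Control as for Npnt and Tnn. Nearly all of it came from Col2a1, whose ratios were 0.39, -0.28 and -0.35. Sox9 was at -0.03, 0.05 and -0.06, and Acan, Col10a1 and Matn1 stayed at background level on all 4 arrays. The part of such cells in the members' values was not tested. Over the 5 markers each, skeletal muscle summed to between 3314 and 3829 on the 4 arrays, macrophages to between 4576 and 4885 and epithelium to between 32.0 and 43.1. Single genes made up most of the first 2 sums. In Control, Acta1 read 3332 of a muscle sum of 3342, and Itgam 4380 of a macrophage sum of 4791. Adipocyte markers summed to 132, 119 and 119 in Miglustat, D-PDMP and D-PPMP cells, against 95.8 in Control. Endothelial markers summed to 25.2, 29.3 and 28.4 in that order, against 17.9 in Control. Both sums were lowest in Control, as was Sparcl1, but both include markers at background level. Vwf, at background level on every array, was itself lowest in Control. Pecam1, the only endothelial marker well above background, read 16.9, 21.6 and 21.7, against 13.7 in Control. Among adipocyte markers well above background on every array, Fabp4 and Lep were lowest in Control and Pparg in D-PPMP cells. A link of these sums to Sparcl1 was not tested. Adgre1 and Ptprc of macrophages, Myod1 and Myog of muscle, Plin1 of adipocytes, Epcam of epithelium and Cdh5, Kdr, Tek and Vwf of endothelium were at background level on every array. Other markers of the same lists were well above background on every array. They were Csf1r, Cd68 and Itgam of macrophages, Acta1 of muscle, Pparg, Fabp4 and Lep of adipocytes, Pecam1 of endothelium, and Cdh1 and Krt5 of epithelium.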

How the data were processed

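Total RNA was labelled with Cy3 for one-colour Agilent arrays, per the labels. The deposited files are output of Agilent Feature Extraction 12.1.1.1, per the file headers. Its processed signal is an intensity from which background was removed array by array, with no scaling across arrays, per the file headers. The authors' value table holds log2 values that equalled the log2 processed signal (signals under 1 raised to 1) less the 75th percentile, within 0.02 for at least 99.99% of probes, so genes were not centred and higher values mean more signal. Its column medians were -4.00, -4.00, -3.89 and -4.10 (Miglustat, D-PDMP, D-PPMP and Control). The software behind it is not given in the sources used here.

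Control spots and spots marked as outliers were left out, a probe's log2 spot signals were averaged, and the 75th percentile over 56605 probes was subtracted. Of these probes, 32994 (58.3%) matched a gene in a RefSeq table of GRCm38.p6. That table served for names, since the array design names another build. The brightest probe over the 4 arrays stands for a gene. Normexp, quantile and cyclic loess values came from limma 3.58.1 in R 4.3.3, and the rest was computed in Python 3.11.15. Normexp (offset 50) ran on the median spot signal, as the files hold no mean. Members and gene lists were chosen with earlier results of these data known. The text names all 10 members, list genes past 2-fold (where a list had none, its 3 farthest genes, of which 1 is not reported here), and the 5 genes nearest to each called member, and any other list gene it names was chosen after its values were seen. Protein sequences were not used here.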

Additional observations from a re-analysis of the deposited data

Results flagged for a closer look

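For 2 members the inhibitors lay on opposite sides of Control by more than 1.5-fold each. Npnt was at 0.63 in Miglustat cells, -1.23 in D-PDMP cells and -1.21 in D-PPMP cells. Tnn was at 0.80 in Miglustat cells, -1.31 in D-PDMP cells and -1.82 in D-PPMP cells. These are log2 ratios of 1 array each to the same Control array, the doses differed, and the difference between inhibitors was not tested.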

How the results depend on the processing

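The same 5 calls stood under quantile and cyclic loess normalization and the percentile over bright probes. They were Npnt and Tnn lower with D-PDMP and D-PPMP, and Sparcl1 higher with Miglustat. These calls also stood with the authors' table, both filters on dim probes and the mean of probes, which could change little or nothing. The authors' table holds nearly the same values, and all member probes were well above background on all 4 arrays. Npnt and Sparcl1 have 1 probe each, so of the called members a mean of probes could move only Tnn. No called member changed sign under any alternative. With normexp on the median spot signal, an alternative added after seeing the files, 0 members were 2-fold lower with D-PDMP, 1 (Tnn) with D-PPMP, and 0 were higher with Miglustat: Npnt was at 0.40, -0.68 and -0.71 and Tnn at 0.69, -0.99 and -1.32. Over all genes, against 30 higher and 25 lower with Miglustat, 22 and 24 with D-PDMP and 43 and 29 with D-PPMP, the counts were 5 and 4, 4 and 2, and 6 and 8 with normexp. With no filter on dim probes they were 959 and 553, 1250 and 506, and 1621 and 364. D-PDMP had 14 higher under both quantile and cyclic loess, 36 lower under quantile and 38 under cyclic loess, and D-PPMP had 22 higher and 56 lower under quantile and 21 and 48 under cyclic loess. Miglustat had 20 and 26 under quantile and 21 and 28 under cyclic loess. The median of related proteins with D-PDMP was -0.26 under quantile and -0.27 under cyclic loess. With D-PPMP it was -0.16 without the filter, and with Miglustat -0.0059 with normexp. The receptors' median with Miglustat was -0.064 over the mean of probes. Normexp added an offset of 50 to every signal, and the cause of these shifts was not tested. No alternative could supply a spread between cultures.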

Other observations

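Genes linked to TGF-beta, a growth factor that regulates matrix genes, formed a list of 12, all measured, none 2-fold from Control. In Miglustat cells 8 of 12 stood higher than Control and the median was 0.10, and with D-PDMP and D-PPMP 3 and 5 of 12 were, with medians of -0.03 and -0.04, the D-PDMP median being 0.0032 with normexp. The share of all genes measured that lay lower than Control was 55.5% in Miglustat cells, 50.4% in D-PDMP cells and 51.5% in D-PPMP cells, and the medians were -0.02, 0.00 and -0.01. Tgfb2, a TGF-beta ligand, read 1166 in Miglustat cells, 554 in D-PDMP cells and 485 in D-PPMP cells, against 603 in Control, with ratios of 0.89, -0.17 and -0.36, and its second probe gave 0.88, -0.29 and -0.45. Of the other ligands on the list, Tgfb3 was at 0.37, -0.19 and -0.29, and Tgfb1 at -0.49, -0.13 and 0.12, below Control with Miglustat. Smad7, an inhibitor of the pathway, was above Control with each inhibitor, at 0.31, 0.56 and 0.47, and its second probe gave 0.20, 0.20 and 0.28.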
